A study of Mus musculus with 15 samples.

Results

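The genes described here are the D-type cyclins Ccnd1, Ccnd2 and Ccnd3, the kinases that bind them, Cdk4 and Cdk6, and the inhibitors Cdkn1a (p21), Cdkn1b (p27) and Cdkn2c (p18). They were chosen from a list of 8 genes by symbol, through probe sets that the platform annotation gives exactly 1 symbol, with the probe set of the highest mean over the 15 arrays standing for a gene. By that rule 7 of the 8 had a value, among 19937 genes in all. Cdkn1a, whose probe set carries several symbols, is not reported here. Expression was measured as total RNA on Affymetrix arrays in 5 groups of 3, 15 in all, from mouse embryonic stem cells.

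All groups were cultures of a single 2i-adapted line with a biotin and 3xFLAG tag knocked in at Ctnnb1, the beta-catenin gene, and with the biotin ligase BirA, so the control cells carry these alleles too. The 2iLIF group had been kept long term in 3 µM CHIR99021, 1 µM PD0325901 and LIF. The 2i group had LIF withdrawn for 24 h and kept both inhibitors. In CHIR, PD0325901 and LIF were withdrawn for 24 h. In PD03, CHIR99021 and LIF were withdrawn for 24 h. In DMSO all factors were withdrawn for 24 h, with the solvent in their place. CHIR99021 inhibits the kinase GSK3 and so stabilises beta-catenin, PD0325901 inhibits MEK and so the activation of ERK, and LIF activates STAT3. Nothing in the labels says that the arrays of a group came from separate cultures, so the p-values measure the spread between these arrays, which may be technical.

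A D-type cyclin binds CDK4 or CDK6, and the active kinase phosphorylates the retinoblastoma protein and its relatives, which releases E2F factors to switch on genes of S phase. In most cell types mitogens act on this step by inducing D cyclins through ERK, and beta-catenin with TCF/LEF factors is known to activate Ccnd1 in some of them. GSK3 also marks cyclin D1 protein for degradation, which an mRNA measurement does not see. Proteins of the INK4 family such as p18 block CDK4 and CDK6, whereas p21 and p27 of the CIP/KIP family act mainly on CDK2 complexes. Mouse embryonic stem cells are known for a short G1 phase and a G1/S step that depends little on D cyclins.

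Promoter windows are shown for 3 members that behaved differently in the inhibitor comparisons below: Cdk6, which was higher with CHIR99021, Ccnd3, which was lower, and Cdk4, which passed in no comparison. Each window runs from 250 bases before to 50 after a RefSeq start site on GRCm38.p6, read on the strand of the gene. The table held windows for 6 of the 8 listed genes: Ccnd3, Cdk4, Cdk6, Cdkn1a, Cdkn1b and Cdkn2c. Capitals mark every match, on either strand, to motifs of factors at the ends of these pathways and of the cell cycle: CTTTGA and also CTTTGT for TCF/LEF, the pattern TTCNNNGAA for STAT, the pattern TGANTCA for AP-1, the letters CCGGAAG for ETS, any of TTTCCCGC, TTTGGCGC and TTTCGCGC for E2F, and the E-box CACGTG that Myc and related factors bind. No printed matches overlap each other.
Cdk6, chr5:3343643-3343942, plus strand: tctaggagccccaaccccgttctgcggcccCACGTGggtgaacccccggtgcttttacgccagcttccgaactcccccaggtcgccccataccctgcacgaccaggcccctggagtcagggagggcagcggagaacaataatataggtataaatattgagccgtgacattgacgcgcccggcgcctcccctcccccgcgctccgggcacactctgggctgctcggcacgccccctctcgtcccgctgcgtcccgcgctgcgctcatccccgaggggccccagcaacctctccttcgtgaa
Ccnd3, chr17:47504801-47505100, plus strand: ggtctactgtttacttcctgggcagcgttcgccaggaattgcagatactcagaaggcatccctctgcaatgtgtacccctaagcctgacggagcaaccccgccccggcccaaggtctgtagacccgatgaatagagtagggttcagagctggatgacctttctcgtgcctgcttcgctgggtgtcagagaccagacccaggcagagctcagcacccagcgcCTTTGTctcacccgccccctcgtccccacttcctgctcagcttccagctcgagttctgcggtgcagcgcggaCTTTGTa
Cdk4, chr10:127063285-127063584, plus strand: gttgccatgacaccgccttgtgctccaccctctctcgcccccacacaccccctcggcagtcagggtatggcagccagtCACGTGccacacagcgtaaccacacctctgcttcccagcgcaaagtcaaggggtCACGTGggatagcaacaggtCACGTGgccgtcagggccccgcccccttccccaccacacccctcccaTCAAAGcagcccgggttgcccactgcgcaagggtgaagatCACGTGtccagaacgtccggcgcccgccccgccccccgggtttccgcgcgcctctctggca
The Cdk6 window held 1 E-box, which begins at base -220 counted from the start site, and no match to the letters searched for TCF/LEF. The printed Ccnd3 window, that of the first start site, held 2 TCF/LEF matches, both read CTTTGT, at -29 and 44. The Cdk4 window held 4 E-boxes, at -172, -118, -98 and -11, and 1 TCF/LEF match, TCAAAG on the printed strand, at -51. Of all 32851 windows of this length, 31.2% held at least 1 TCF/LEF match and 6.68% at least 2. An E-box occurred in 7.15% of them and at least 4 E-boxes in 0.0244% (8 windows). A STAT match occurred in 8.3%, AP-1 in 7.81%, ETS in 8.86% and an E2F match in 1.84% of all windows. The second start site of Ccnd3 had 1 ETS match and no TCF/LEF match, and which start site these cells use was not tested. The second start site of Cdkn2c had 1 E-box, and the windows of Cdkn1b and of the other Cdkn2c start site had no match to these letters. A match of letters is a description and does not show binding.

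The array medians lay between 6.98 and 7.06 on the log2 scale. The 8 embryonic stem cell markers (Pou5f1, Sox2, Nanog and others) averaged between 11.69 and 11.87 on every array, but single markers moved in opposite directions. Pou5f1 had group means of 12.49 to 12.54. Nanog stood at 11.74 in DMSO against 12.44 to 12.72 in the other groups and Zfp42 at 9.82 against 10.36 to 10.66, while Utf1 was highest in DMSO (12.51) and lowest in 2iLIF (11.57). Extra-embryonic endoderm markers averaged 6.33 to 6.49 and fibroblast and feeder markers 6.32 to 6.51 (8 genes each). The 6 measured neural markers averaged 6.73 to 7.20 and were highest in PD03 (7.17 to 7.20), with Pax6 at 8.19 there against 7.76 in DMSO and Nes at 8.06 against 7.41. Of these 6, Pax6 and Nes passed as higher in PD03 than in DMSO, and Sox1 (8.24 against 8.39) and Zic1 (5.52 against 5.63) read lower without passing. The 7 trophoblast markers averaged 6.42 to 7.05 and were highest in 2iLIF, where Eomes and Tfap2c stood at 9.59 and 8.83, while Cdx2, Elf5 and Gata3 stood between 5.63 and 6.09 in every group. In DMSO, Eomes and Tfap2c stood at 7.79 and 6.87. These marker levels differ between the groups, and their part in the results below was not tested. In such bulk samples, fewer cells with a transcript and less of it per cell cannot be told apart.

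**Figure D1:**
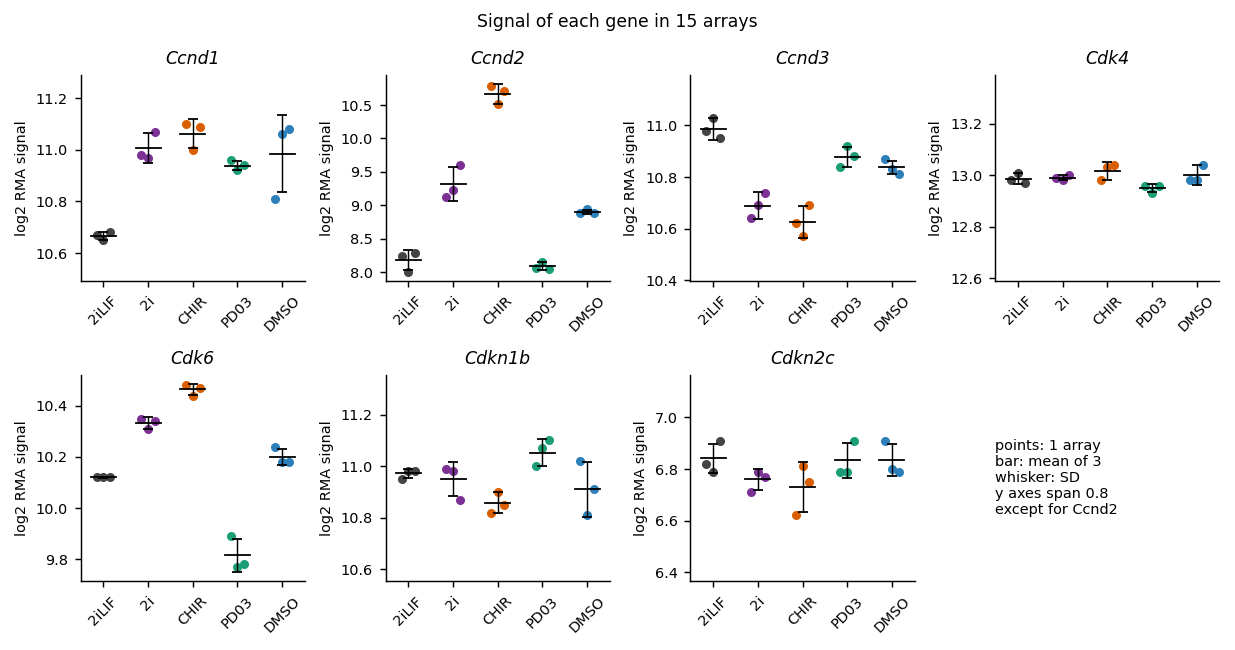
Log2 RMA signal of the 7 genes (vertical axes) in the 5 groups (horizontal axis), with 1 point per array, a bar at the mean of 3 and whiskers for the SD; the axes span 0.8 log2 units except for Ccnd2. Ccnd2 group means run from 8.09 in PD03 to 10.67 in CHIR, whereas those of Cdk4 lie between 12.95 and 13.02.

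Ccnd2 had the widest range of the 7 genes, with group means 2.58 apart on the log2 scale, more than for 99.9% of all genes. Its order was CHIR, 2i, DMSO, 2iLIF and PD03 from high to low. The CHIR arrays read 10.79, 10.51 and 10.71 and the 2i arrays 9.12, 9.23 and 9.61. The DMSO arrays read 8.88, 8.94 and 8.88, the 2iLIF arrays 8.25, 8.01 and 8.29, and the PD03 arrays 8.06, 8.16 and 8.05. Neighbours in this order did not overlap except 2iLIF and PD03, whose arrays interleaved.

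Between CHIR and DMSO, cyclin D2 mRNA differed by 1.77 ± 0.11 (SE) on the log2 scale, 3.40-fold higher with CHIR99021 (limma adjusted p = 7.99e-09). PD0325901 had the opposite direction: PD03 was below DMSO by -0.81 ± 0.11, which is 1.76-fold lower (adjusted p = 4.07e-05). Both effects were also seen in the presence of the other inhibitor. With CHIR99021 present, keeping PD0325901 rather than withdrawing it for 24 h gave -1.35 ± 0.11 (2i minus CHIR, adjusted p = 5.57e-07). With PD0325901 present, keeping CHIR99021 rather than withdrawing it gave 1.23 ± 0.11 (2i minus PD03, adjusted p = 5.68e-07). Cells with both inhibitors lay between the single treatments, and 2i stood 0.42 ± 0.11 above DMSO (1.34-fold, adjusted p = 0.00733). Without 2i replicate 3, the highest 2i array, that last difference was 0.27 (adjusted p = 0.034).

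The effect of CHIR99021 on Ccnd2 was smaller with PD0325901 than without it by -0.54 ± 0.15, which did not pass (limma adjusted p = 0.0874). It passed without 2i replicate 3, at -0.68 (adjusted p = 0.00637), and the adjusted p over all alternatives ran from 0.00637 to 0.213. The groups with and without LIF also differed. Ccnd2 was 2.20-fold lower in 2iLIF than in 2i (-1.14 ± 0.11, adjusted p = 1.91e-06), and it was also below DMSO (-0.72 ± 0.11, adjusted p = 4.28e-05). The 2iLIF arrays, which had CHIR99021, thus overlapped those of PD03, which had none.

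**Figure D2:**
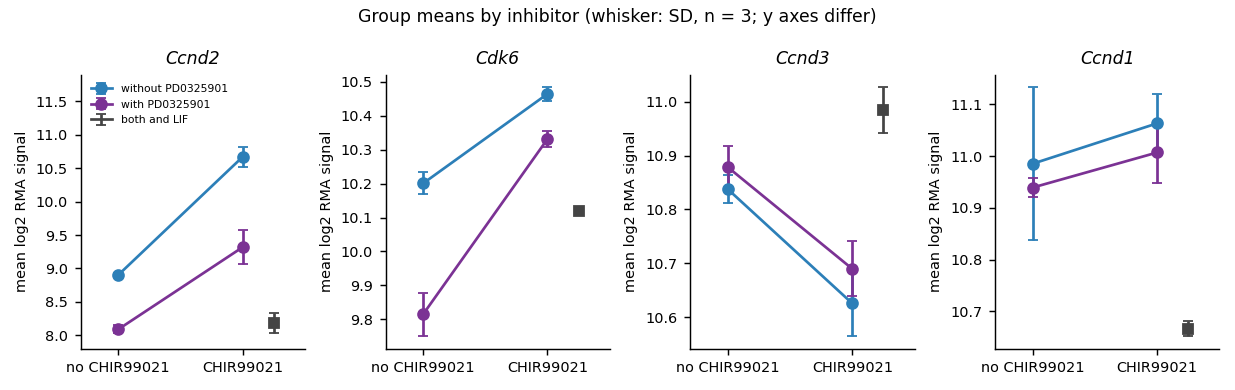
Mean log2 RMA signal of Ccnd2, Cdk6, Ccnd3 and Ccnd1 (vertical axes, which differ) without and with CHIR99021 (horizontal axis), joined within groups lacking PD0325901 (DMSO to CHIR) and groups holding it (PD03 to 2i); squares show 2iLIF and whiskers the SD of 3 arrays. The Ccnd2 lines rise by 1.77 and 1.23, the Cdk6 lines by 0.26 and 0.52, and the Ccnd3 lines fall by 0.21 and 0.19.

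Ccnd1, the cyclin D gene most often cited as a target of beta-catenin and ERK, passed in none of the comparisons made between groups without LIF. CHIR and PD03 were not compared directly. Its arrays read 11.10, 11.00 and 11.09 in CHIR and 10.98, 10.97 and 11.07 in 2i. They read 10.96, 10.92 and 10.94 in PD03 and 10.81, 11.06 and 11.08 in DMSO. DMSO replicate 1 lay below all other arrays without LIF, which spanned 10.92 to 11.10, and neighbours in the order of these 4 groups overlapped. The CHIR and 2i arrays all lay above the PD03 arrays, though 2i minus PD03 did not pass (limma adjusted p = 0.515).

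CHIR minus DMSO was 0.08 for Ccnd1, with a 95% interval of -0.05 to 0.20, and PD03 minus DMSO was -0.05, with an interval of -0.17 to 0.08 (limma adjusted p = 0.423 and 0.686). In this fit the intervals leave room for at most 1.15-fold higher with CHIR99021 and, with PD0325901, a ratio down to 0.889. The bounds move with the arrays used. Over the alternatives PD03 minus DMSO ran from -0.13 to 0.001 (lowest limma adjusted p = 0.0553). CHIR minus DMSO ran from -0.01 to 0.12 (lowest 0.182). The arrays with LIF were apart, at 10.67, 10.65 and 10.68, below every other array. Ccnd1 was lower in 2iLIF than in 2i by -0.34 ± 0.06 (1.27-fold lower, adjusted p = 7.48e-04) and lower than in DMSO by -0.32 ± 0.06 (adjusted p = 3.52e-04). Both calls held in every alternative run, including without DMSO replicate 1.

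Ccnd3, the third D cyclin, went opposite to Ccnd2 in the comparisons with and without CHIR99021 and between 2iLIF and 2i. Its highest values were in 2iLIF, at 10.98, 11.03 and 10.95, followed by PD03 at 10.84, 10.92 and 10.88 and DMSO at 10.87, 10.83 and 10.81. Lower values were read in 2i (10.64, 10.69 and 10.74) and in CHIR (10.62, 10.57 and 10.69). No array with CHIR99021 and without LIF reached the lowest array without CHIR99021. PD03 overlapped DMSO and 2i overlapped CHIR.

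Ccnd3 was 1.16-fold lower in CHIR than in DMSO (-0.21 ± 0.04 SE, limma adjusted p = 0.00149) and lower in 2i than in PD03 (-0.19 ± 0.04, adjusted p = 0.00372). PD0325901 made no difference that passed: PD03 minus DMSO was 0.04, with a 95% interval of -0.05 to 0.13, and 2i minus CHIR was 0.06. The 2i minus DMSO difference of -0.15 ± 0.04 (adjusted p = 0.014) was lost without 2i replicate 1 (0.0704) and without DMSO replicate 1 (0.0522). In 2iLIF Ccnd3 was higher than in 2i by 0.30 ± 0.04, or 1.23-fold (adjusted p = 1.24e-04). It was also above DMSO, by 0.15 ± 0.04 (adjusted p = 0.0103). Leaving out 2iLIF replicate 2 ended that call (0.0534). Between 2iLIF and 2i, then, Ccnd1 and Ccnd2 were lower with LIF and Ccnd3 was higher.

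Among the kinases, Cdk6 passed in 7 of the 8 comparisons and Cdk4 in none. Cdk6 arrays read 10.48, 10.44 and 10.47 in CHIR, 10.35, 10.31 and 10.34 in 2i, and 10.24, 10.18 and 10.18 in DMSO. The 2iLIF arrays all read 10.12, and the PD03 arrays 9.89, 9.77 and 9.78. Neighbouring groups never overlapped, and the order was that of Ccnd2. The group means were 0.65 apart, a range wider than that of 93.6% of all genes.

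In CHIR, Cdk6 was 1.20-fold above DMSO (0.26 ± 0.04 SE, limma adjusted p = 7.26e-05), and in PD03 it was 1.31-fold below DMSO (-0.39 ± 0.04, adjusted p = 1.54e-06). The effect of CHIR99021 was 0.52 ± 0.04 in the presence of PD0325901 (1.43-fold, adjusted p = 7.39e-08), which is larger than without PD0325901 by 0.25 ± 0.05 (interaction, adjusted p = 0.0174). That interaction call was lost after centring each array on its median (0.0627) and without 2i replicate 1 (0.0507), CHIR replicate 2 (0.0501), PD03 replicate 2 (0.0512) or PD03 replicate 3 (0.0575). With CHIR99021 present, the difference made by PD0325901 was -0.13 ± 0.04 (2i minus CHIR, adjusted p = 0.0308). That call was lost when any 2i or CHIR array was left out (0.0534 to 0.106). The arrays did not overlap, but neither did those of Cdk4 in PD03 minus DMSO, which did not pass (limma adjusted p = 0.379). Cdk6 was higher in 2i than in DMSO by 0.13 ± 0.04 (adjusted p = 0.014), which was lost without 2i replicate 1 (0.0546) or DMSO replicate 2 (0.0511). Cdk6 was lower in 2iLIF than in 2i by -0.21 ± 0.04 (adjusted p = 8.6e-04), and 2iLIF minus DMSO was -0.08 ± 0.04 (adjusted p = 0.111).

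Cdk4, whose window carries 4 E-boxes, had group means from 12.95 to 13.02 and passed in none of the 8 comparisons (limma, lowest adjusted p = 0.379). At an unadjusted p below 0.05 it also passed in none. Its range of 0.06 between group means was wider than that of 10.8% of all genes. Its mean over the arrays, 12.99, was above that of 99.8% of all genes, and whether signal is compressed at that level was not tested. The 95% interval of CHIR minus DMSO was 0.962- to 1.061-fold, that of PD03 minus DMSO 0.920 to 1.015, and that of 2iLIF minus 2i 0.949 to 1.047.

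The inhibitor genes Cdkn1b and Cdkn2c gave no call in the 8 comparisons. Cdkn1b, which encodes p27, had its highest mean in PD03 (11.05 ± 0.05 SD, n = 3) and its lowest in CHIR (10.86 ± 0.04). PD03 minus DMSO was 0.14 ± 0.05 (SE), and the adjusted p of 0.0718 fell to 0.012 without DMSO replicate 1 and to 0.0312 with a trended and robust spread. The other probe set of Cdkn1b read lower, with means from 8.13 in DMSO to 8.38 in 2iLIF, and had PD03 at 8.16 and DMSO at 8.13, so it did not show the PD03 difference. Cdkn2c, which encodes p18, had means between 6.73 in CHIR and 6.84 in 2iLIF and DMSO, below the array medians, where a value may be background. Its 95% interval for CHIR minus DMSO ran from 0.859- to 1.005-fold.

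**Figure D3:**
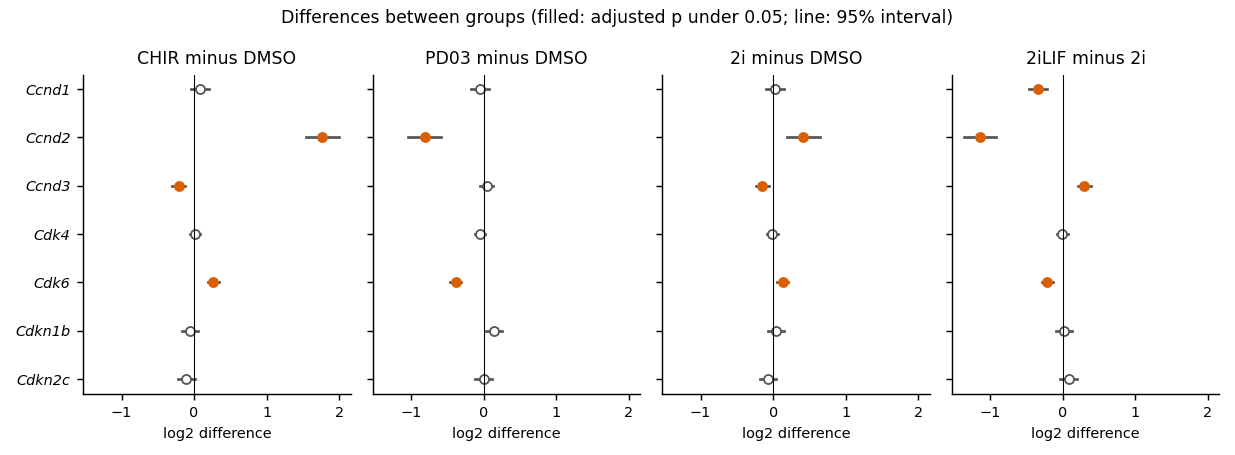
Log2 differences of the 7 genes (horizontal axes) in 4 comparisons, with 95% intervals from limma as lines and filled points for genes whose adjusted p was under 0.05. Ccnd2 lies at 1.77, -0.81, 0.42 and -1.14 from left to right, and Cdk4 lies within 0.05 of 0 in each.

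Counted over the 7 genes, 3 passed in CHIR minus DMSO (Ccnd2 and Cdk6 higher, Ccnd3 lower), against 20.8% of all genes. In PD03 minus DMSO 2 passed, Ccnd2 and Cdk6, both lower, against 16.8% of all genes. In 2i minus DMSO 3 passed, Ccnd2 and Cdk6 higher and Ccnd3 lower (25.5% of all genes). In 2i minus CHIR 2 passed, Ccnd2 and Cdk6, both lower (9.46%), and in 2i minus PD03 3 passed, Ccnd2 and Cdk6 higher and Ccnd3 lower (19.5%). The interaction passed for Cdk6 (1 of 7, against 2.04%). In 2iLIF minus 2i 4 passed, Ccnd1, Ccnd2 and Cdk6 lower and Ccnd3 higher (12.2%), and in 2iLIF minus DMSO 3 passed, Ccnd1 and Ccnd2 lower and Ccnd3 higher (34.7%). The comparisons with DMSO share its 3 arrays, and those with 2i share the 2i arrays, so these counts are not independent of each other. Medians of the 7 genes lay between -0.05 and 0.04, beside -0.01 to 0.02 for all genes.

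The wider G1/S network held 61 measured genes in 8 lists besides the 7. In CHIR minus DMSO 15 passed, 4 higher and 11 lower (median -0.04), and in PD03 minus DMSO 8 passed, 2 higher and 6 lower (median -0.004). In 2i minus DMSO 17 passed, 5 higher and 12 lower, and in 2iLIF minus 2i 11 passed, 3 higher and 8 lower. These numbers are 24.6%, 13.1%, 27.9% and 18.0% of the 61, close to the shares of all genes given above except in 2iLIF minus 2i. The interaction passed in 0 of 61 with limma (adjusted), against 2.04% of all genes, a share too small for this count to differ from it. At an unadjusted p under 0.05 there were 7, and the share of all genes at that threshold was not counted.

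**Figure D4:**
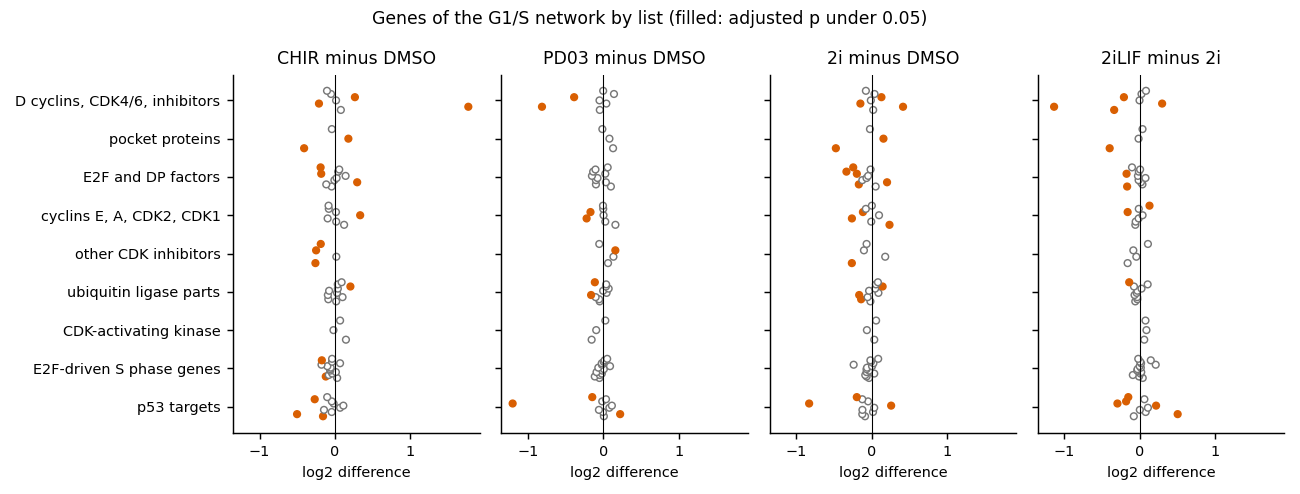
Log2 differences (horizontal axes) of the 7 genes and of 61 other G1/S genes by list (rows) in 4 comparisons, 1 point per gene, filled where the adjusted p was under 0.05. Ccnd2 at 1.77 in CHIR minus DMSO and Pmaip1 at -1.20 in PD03 minus DMSO are the outermost points in their panels.

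Of the 3 pocket protein genes, the substrates of CDK4 and CDK6, Rb1 was lower with CHIR99021: its means were 9.11 ± 0.05 (SD, n = 3) in DMSO and 8.70 ± 0.07 in CHIR, and 9.24 ± 0.06 in PD03 and 8.63 ± 0.18 in 2i. CHIR minus DMSO was -0.41 ± 0.07 (SE, limma adjusted p = 4.8e-04) and 2i minus PD03 -0.60 ± 0.07 (adjusted p = 1.36e-05). In 2iLIF Rb1 was lower again, by -0.40 ± 0.07 against 2i (adjusted p = 8.72e-04), to a mean of 8.23 ± 0.05. Rbl1 (p107) was 0.18 ± 0.04 higher in CHIR than in DMSO (adjusted p = 0.00908). In CHIR minus DMSO 2 of the 3 passed, 1 in each direction, against 20.8% of all genes.

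Of 10 E2F and DP genes, 3 passed in CHIR minus DMSO (1 higher, 2 lower) and 5 in 2i minus DMSO (1 higher, 4 lower). Of all genes, 20.8% and 25.5% passed in these comparisons. E2f8, an atypical E2F that represses, was at -0.33 ± 0.05 in 2i minus DMSO (limma adjusted p = 1.92e-04). The DP partner Tfdp2 was at -0.24 ± 0.05 in the same comparison (adjusted p = 0.00107). The activator E2f3 was at 0.29 ± 0.06 in CHIR minus DMSO (adjusted p = 0.00305), a call lost when its probe set of largest variance was used (0.207).

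Of 7 genes for cyclins E and A, their kinases and Cdc25a, 1 passed in CHIR minus DMSO, Ccne2 at 0.33 ± 0.07 (limma adjusted p = 0.00164). In that comparison 20.8% of all genes passed. Ccne1, the other cyclin E gene, was lower with PD0325901, at -0.22 ± 0.04 in PD03 minus DMSO (adjusted p = 0.00107). With CHIR99021 present, 2i minus CHIR was -0.16 ± 0.04 (adjusted p = 0.0178). Besides the minimum difference of 0.26, that call was lost in 4 of the alternatives (up to 0.0775). In 2i minus DMSO, which differs in both inhibitors, Ccne1 was at -0.26 ± 0.04 (adjusted p = 1.44e-04). Ccna1 was at 0.24 ± 0.05 in 2i minus DMSO (adjusted p = 0.00343). Its group means ran from 6.92 in DMSO to 7.16 in 2i, near the array medians, where a value may be background. The 4 other CDK inhibitor genes had 3 lower in CHIR minus DMSO, against 10.8% of all genes called lower. They were Cdkn1c (p57) at -0.26 ± 0.07 (adjusted p = 0.0166), Cdkn2b (p15), an INK4 inhibitor, at -0.25 ± 0.05 (0.00178) and Cdkn2d (p19), another, at -0.19 ± 0.05 (0.019). The call of Cdkn1c was lost without CHIR replicate 1 or 2 or DMSO replicate 3 (adjusted p up to 0.072), and that of Cdkn2d without CHIR replicate 1 or 2 or DMSO replicate 1 and after median centring (up to 0.0796). Cdkn2b was at -0.26 ± 0.05 in 2i minus PD03 (adjusted p = 0.00136). In PD03 minus DMSO it was higher, at 0.16 ± 0.05 (adjusted p = 0.0373), the 1 call of the 4 there, against 16.8% of all genes. Besides the minimum difference of 0.26, that call was lost in 8 of the alternatives (up to 0.185).

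Of 10 ubiquitin ligase genes that act on D cyclins, cyclin E or p27, 1 passed in CHIR minus DMSO, 2 in PD03 minus DMSO and 3 in 2i minus DMSO. These counts stand beside 20.8%, 16.8% and 25.5% of all genes. Fbxw7, the receptor for cyclin E, was at 0.20 ± 0.04 in CHIR minus DMSO (limma adjusted p = 0.00143), lost with the mean of its probe sets (0.0507). Skp2, the receptor for p27, was at 0.20 ± 0.04 in 2i minus PD03 (adjusted p = 9.37e-04) and Cul4a at -0.16 ± 0.04 in 2i minus DMSO (adjusted p = 0.01), which was lost without 2i replicate 3 or DMSO replicate 3 and with only the groups compared in the fit (up to 0.0737). The 3 genes of the kinase that activates CDKs, Cdk7, Ccnh and Mnat1, had 1 call in all, Ccnh at 0.19 ± 0.06 in 2i minus PD03 (adjusted p = 0.0478). In that comparison 19.5% of all genes passed.

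The S phase genes that E2F drives, such as the Mcm helicase genes, Pcna and Rrm2, had 14 measured members. In CHIR minus DMSO 2 of the 14 were lower, against calls in 20.8% of all genes: Tk1 at -0.17 ± 0.05 and Cdt1 at -0.12 ± 0.04 (limma adjusted p = 0.0169 and 0.0438), and the list median was -0.06. Besides the minimum difference of 0.26, the call of Tk1 was lost in 5 of the alternatives and that of Cdt1 in 16 (adjusted p up to 0.147 and 0.214). In PD03 minus DMSO, 2i minus DMSO and 2iLIF minus 2i the limma count was 0 of 14, with 3, 2 and 2 genes at an unadjusted p under 0.05 and medians of -0.02, -0.03 and 0.01, against calls in 16.8%, 25.5% and 12.2% of all genes. The shares of all genes at the unadjusted threshold were not counted. In 2iLIF minus DMSO 2 were lower, Mcm2 at -0.18 ± 0.03 (adjusted p = 4.21e-04) and Mcm6 at -0.10 ± 0.03 (0.0221), against 34.7% of all genes called.

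The genes whose 5 group means were most like those of Ccnd2, by the root mean square difference after each profile was centred on its own mean, were Itga1 (0.267 log2 units), an integrin subunit, Prtg (0.370), an immunoglobulin-family membrane protein, and Lpar4 (0.389), a receptor for lysophosphatidic acid. Each was highest in CHIR and lowest in PD03. For Cdk6 the nearest were Gpc6 (0.031), a glypican, Glt1d1 (0.050), named for a glycosyltransferase domain, and Dmrt1 (0.050), a DM-domain transcription factor. The distances are over 5 group means of the same arrays and carry no test.

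**Figure D5:**
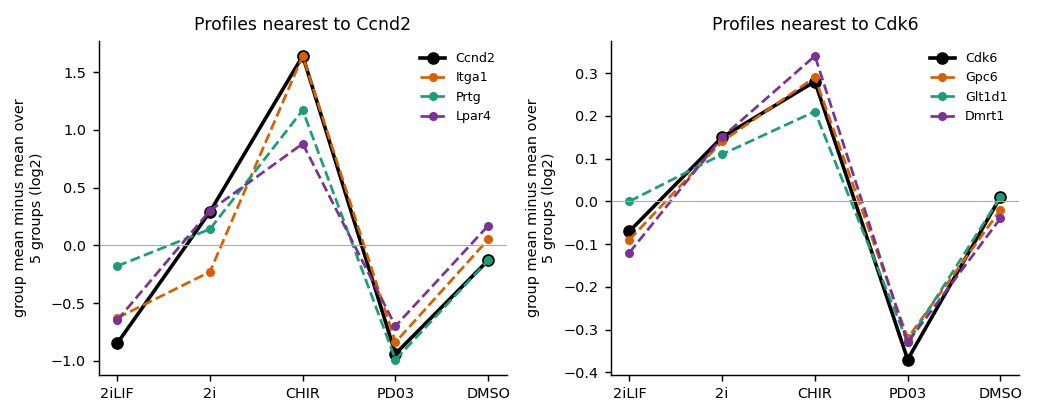
Group means minus the mean over the 5 groups (vertical axes, log2 units) for Ccnd2 and Cdk6 (solid black) and for the 3 genes nearest to each (dashed), by group (horizontal axis). Every profile peaks in CHIR and is lowest in PD03, where Ccnd2 lies at -0.94 and Cdk6 at -0.37.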

How the data were processed

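RNA of 15 samples (300 ng each, per the labels' protocols) was hybridised to 15 arrays. The values are log2 signals per probe set that the authors deposited after RMA (a method made of background correction, quantile normalization between arrays and a summary over probes), per the submitters' processing notes. Its version and the genome build were not given in the sources used here. RMA compresses low values, and quantile normalization hides a shift common to most genes. Of 34760 probe sets, 21640 had 1 symbol in the platform annotation, 1321 several, and 11799 are unnamed here; the 21640 gave 19937 genes.

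With limma 3.58.1 in R 4.3.3, lmFit and eBayes estimated 5 group means from the 15 arrays together, with 10 residual and 5.09 prior degrees of freedom. A gene passed at a Benjamini-Hochberg adjusted p under 0.05 over the 19937 genes of a comparison, two-sided. The interaction is (2i minus PD03) minus (CHIR minus DMSO). No low-value filter or detection call was used. Errors of differences are SE, those of levels SD. Precision is limited by 3 arrays per group. Alternatives were other rules for the probe set, all probe sets, a filter on low values, a minimum difference, median centring, array weights, a trended and robust spread, only the groups compared, the replicate block and each array left out.

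The 8 genes, the lists and the motifs were chosen with earlier results of these data known. Of each list, up to 3 genes with the largest passing difference in CHIR, PD03 or 2i minus DMSO or 2iLIF minus 2i are named, with values for some of the comparisons. For members whose group means differ by at least 0.5, the 3 nearest profiles are named, without predicted symbols. Ccnh, Cdk7, Mnat1, Mcm2, Mcm6, the marker genes and the examples of S phase genes were named outside this rule. Promoter windows come from RefSeq. Some genes of the lists are not reported here. The procedure was tested on simulated data.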

Additional observations from a re-analysis of the deposited data

Results flagged for a closer look

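Cdk6 was marked because the effect of CHIR99021 on it differed between cells with and without PD0325901, by a test of the difference itself. The effect was 0.52 with PD0325901 and 0.26 without it, a difference of 0.25 ± 0.05 (SE, limma adjusted p = 0.0174), and the adjusted p ran from 0.00659 to 0.0627 over the alternatives. Arrays of the 4 groups did not overlap, which describes their levels and not the difference between the effects. Single outlying arrays were not tested in groups of 3.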

How the results depend on the processing

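Of 1400 values of the 7 genes recomputed under the alternatives (56 results), 29 changed their call. The sign changed in 37 values of 19 results, none of them called in either setting. The largest of these results in size was Cdkn1b in 2i minus PD03, at -0.10. With a minimum difference of 0.26 the number of genes called was 1 instead of 3 in 2i minus DMSO and 1 instead of 2 in 2i minus CHIR. For the interaction it was 0 instead of 1. Ccnd3 also lost its calls in CHIR minus DMSO (-0.21), 2i minus PD03 (-0.19) and 2iLIF minus DMSO (0.15). Cdk6 lost that in 2iLIF minus 2i (-0.21). This setting drops small differences by construction. With all probe sets in the fit, and with only the groups compared in it, 2i minus CHIR had 1 call. With median-centred arrays the interaction had 0. The cause was not tested for these last 3. Leaving out each array in turn gave 3 calls each for CHIR minus DMSO and 2i minus PD03, 4 in 2iLIF minus 2i, 2 to 3 in PD03 minus DMSO and in 2iLIF minus DMSO, 1 to 3 in 2i minus DMSO, 1 to 2 in 2i minus CHIR and 0 to 2 for the interaction. The 2i minus DMSO count was 1 without 2i replicate 1, where the calls of Ccnd3 and Cdk6 were lost.

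Replicate numbers are shared between groups, but only 10 of 30 same-numbered pairs of arrays had deviations correlated over 0.1, against 22 of 60 pairs of different number, and 6 of 15 arrays correlated best with their own number. The numbers were therefore not taken to pair the samples. A fit with the replicate number as a replicate block gave the same counts of calls among the 7 genes: 3, 2, 3, 2, 3, 1, 4 and 3 for CHIR, PD03 and 2i against DMSO, for 2i against CHIR and PD03, for the interaction, and for 2iLIF against 2i and DMSO. Over all genes the interaction count of 406 became 249 with all probe sets in the fit, 269 without PD03 replicate 1 and 255 without PD03 replicate 3. With the minimum difference of 0.26, the counts over all genes went from 4144 to 1758 (CHIR minus DMSO), 3354 to 1498 (PD03 minus DMSO), 5088 to 2432 (2i minus DMSO), 1887 to 804 (2i against CHIR), 3891 to 1535 (2i against PD03), 2437 to 1120 (2iLIF against 2i) and 6916 to 3780 (2iLIF against DMSO).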

Other observations

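Genes that p53 induces beside Cdkn1a moved in several directions. Of 10 measured, 3 passed in CHIR minus DMSO (0 higher, 3 lower; median -0.07), 3 in PD03 minus DMSO (1 higher, 2 lower), 3 in 2i minus DMSO (1 higher, 2 lower) and 5 in 2iLIF minus 2i (2 higher, 3 lower). Of all genes, 20.8%, 16.8%, 25.5% and 12.2% passed in these comparisons. Pmaip1 (Noxa), a BH3-only activator of cell death, had means of 9.93 ± 0.08 (SD, n = 3) in DMSO and 9.91 ± 0.02 in CHIR, against 8.73 ± 0.10 in PD03, 9.11 ± 0.07 in 2i and 8.81 ± 0.22 in 2iLIF. Every group with PD0325901 lay below the others, with PD03 minus DMSO at -1.20 ± 0.08 (SE, 2.30-fold lower, limma adjusted p = 4.7e-08). Btg2, which restrains proliferation, was at -0.50 ± 0.05 in CHIR minus DMSO (adjusted p = 1.37e-06) and at 0.22 ± 0.05 in PD03 minus DMSO (adjusted p = 0.00337). It was 0.50 ± 0.05 higher in 2iLIF than in 2i (adjusted p = 2.52e-06). Among the 5 group means, those of Btg2 were lowest in CHIR (8.09 ± 0.07 SD) and highest in 2iLIF (8.97 ± 0.06). Trp53inp1 was at -0.27 ± 0.05 (SE) in CHIR minus DMSO (adjusted p = 6.42e-04).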
